A study of Gallus gallus with 2 samples.

Results

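Splicing of the core spliceosome and of the DEAD-box and DEAH-box RNA helicase families was followed in chicken DT40 cells that carried SRSF10 or lacked it. The members were every event in the deposited splicing table whose gene name begins with the symbols of spliceosomal particles and their partners (among them PRPF, SF3A, SF3B, SNRP, SNRNP, U2AF, U2SURP, PUF60, CWC, LSM and ZRSR) or with DDX or DHX. The rule found 84 of 10652 rows, under 38 gene names. The choice was made by name and used no count, but earlier results of these data were known when it was made.

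DT40 is a B-lymphoblast line that was derived from the bursa of Fabricius. The wild-type library came from cells with the wild-type genotype, and the other from SRSF10-/- cells, which lack a splicing factor of the serine/arginine-rich family. Both were made from untreated poly(A) RNA as far as the labels state, and the sources used here do not give the number of clones behind the deficient line. Each genotype was sequenced as 1 library, so there is no replicate check on any value and each test compares a pair of libraries, not the genotypes. SRSF10 had 0 rows in the table, and its own reads therefore give no check of the label. Of 15 B lymphocyte genes, 10 had a row (BTK, SYK, PAX5 and TNFRSF13C were among those that had none), as had 2 of 7 T lymphocyte genes, CD3D and CD8A. A row shows that alternative events were listed, not how strongly a gene was expressed.

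The spliceosome removes introns in steps. The U1 particle and its partners bind the 5' splice site, and SF1 and the U2AF proteins bind the branch point and the 3' splice site. The U2 particle then replaces SF1 at the branch point, the U4/U6.U5 tri-snRNP joins, and ATP-driven helicases rearrange the RNA until both cuts are made and the particles are recycled. Many DEAD-box and DEAH-box proteins act elsewhere, in ribosome assembly, translation, RNA decay or innate immunity. Transcripts of splicing factors are themselves often alternatively spliced.

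Most tested events of these genes differed by under 5 points between the libraries (75.8%), as did most of all tested events (69.4%). The called changes lay in early-acting factors (among them PUF60 and U2SURP), a late-acting factor (CWF19L2) and a gene with a helicase family symbol (DDX26B). Inclusion is given as the percent of an event's reads that support inclusion, and a difference is the deficient level minus the wild-type level, in percentage points. An event was called changed at a Benjamini-Hochberg adjusted p under 0.05 over all tested events (two-sided Fisher's exact test on reads) and a difference of at least 10 points. Of the 81 member events with 2 numbers per library, 66 in 33 genes had at least 20 reads in each library and were tested. Of these, 7 were called (10.6%, 95% exact interval 4.37 to 20.6), against 4.7% of all 6089 tested events. Inclusion was higher without SRSF10 in 4 of them (higher in 2.48% of all events) and lower in 3 (lower in 2.22%). At any size of difference, 8 of the 66 had an adjusted p under 0.05 by Fisher's exact test (12.1%, against 5.8% of all events). The interval of the members' share holds the share of all events. The mix of event types also differed. Events with no defined type, of which 0.712% were called over the whole table, made up 12.1% of tested members. Over all tested events they made up 25.4%. The calls lay in 5 of 33 genes (15.2%) against 7.05% of all genes tested. The events described below are 60 of the 66, and 4 of these (6.67%) were called, in PUF60, U2SURP, CWF19L2 and DDX26B.

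The member events were deeper than the rest of the table, with a median of 243.5 wild-type and 216 deficient reads against 95 and 98 over all tested events. The interval of the difference lay within 5 points in 25 events (37.9%, against 18.5% of all events) and within 10 points in 44 (66.7%, against 40.4%). The median absolute difference was 1.63 points among members and 2.36 points over all events. A difference of at least 10 points, whatever its p, was found in 8 of the 66 (12.1%, against 15.1% of all events). Inclusion was at most 5% in both libraries in 12 events and at least 95% in both in 18, together 45.5% of the members against 35.7% of all events. The other 36 events were used at intermediate levels in at least 1 library.

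**Figure D1:**
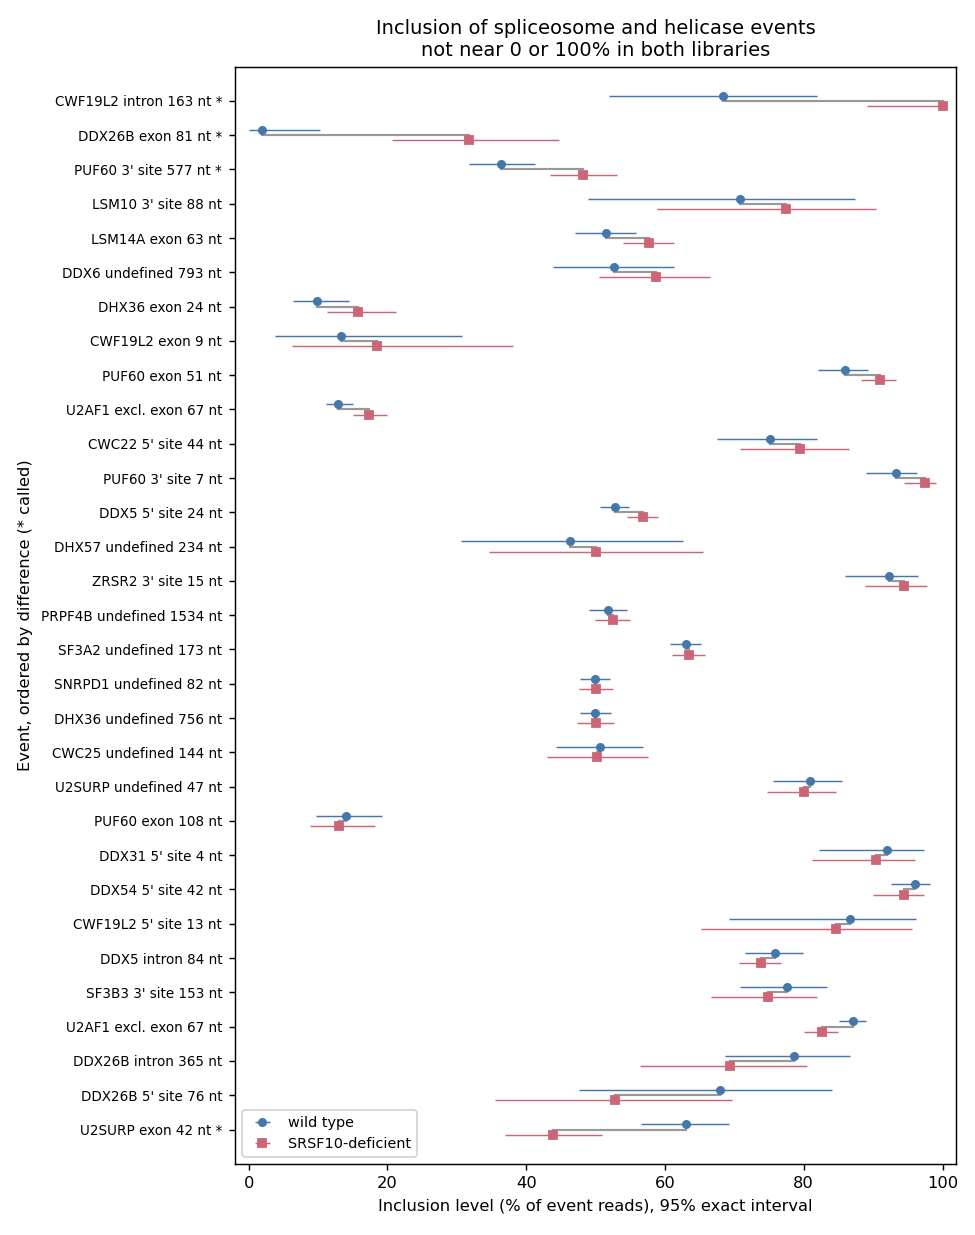
Inclusion level (percent of event reads) of the 31 described events that were not at most 5% or at least 95% in both libraries, for the wild-type (circles) and the SRSF10-deficient library (squares), with 95% exact intervals that cover counting error only; events are ordered by their difference and asterisks mark called events. The 4 called events range from 31.7 points higher for the CWF19L2 intron to -19.1 points for the U2SURP exon, and most other pairs of intervals overlap.

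By event type, 3 of 19 cassette exons were called (15.8%, against 6.07% of all cassette exons), as were 2 of 17 alternative 3' splice sites (11.8%, against 4.58%) and 1 of 5 retained introns (20%, against 4.53%). None of 14 alternative 5' sites was called (against 4.21%), and 1 of these 14 had an unadjusted p under 0.05 by Fisher's exact test. Of 3 mutually exclusive rows, 1 was called (against 46.7%), and of 8 events with no defined type, 0 (against 0.712%). The 19 tested cassette exons of the members had a median length of 81 nt and a range of 9 to 258 nt. The length was a multiple of 3 in 14 of these 19, while it was in 57.3% of all tested cassette exons. Whether an exon is coding is not stated in the table.

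**Figure D2:**
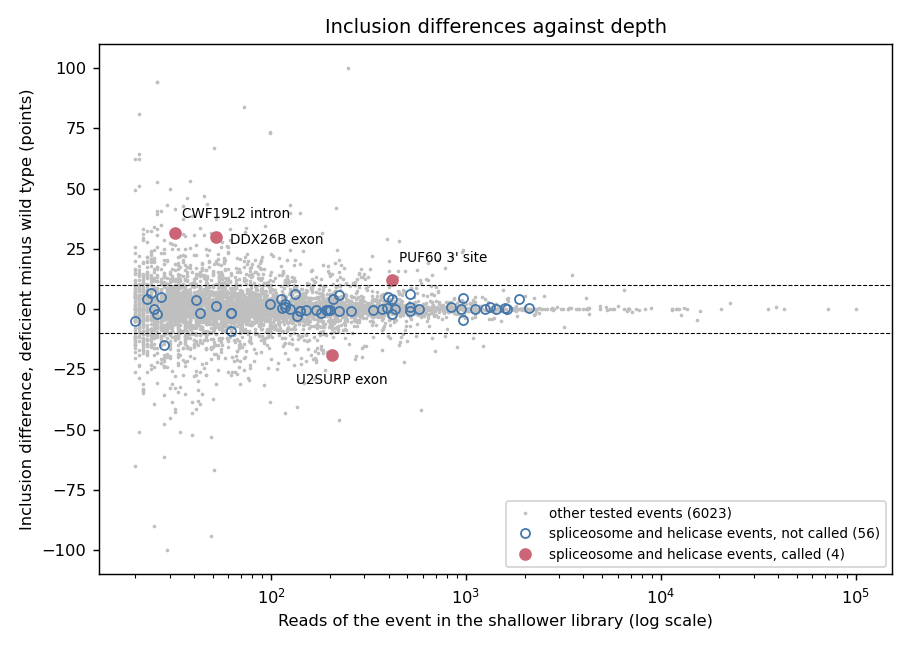
Difference in inclusion (deficient minus wild type, in points) against the reads of the event in the shallower library on a log scale, for the 60 described spliceosome and helicase events (open circles, or filled and named where called) and the 6023 tested events of other genes (grey dots); dashed lines mark 10 points in each direction. The widest differences among the tested members, in CWF19L2 and DDX26B, rest on few reads, and the PUF60 and U2SURP events on more.

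The members are grouped below by role, and the share to set beside each group's calls is the 4.7% called over all tested events. Among the factors of the U1 particle and its partners, 7 events were tested and 3 were called, 1 of which is the call that remained after the correction for spread given at the end. Of these 7 events, 1 is described here and was not called. In SNRPC, the U1-C protein that stabilises pairing with the 5' splice site, a 105 nt exon was included at 98.4% (97.7 to 98.9; 2105 reads) and 98.8% (98.2 to 99.2; 2204 reads), with an interval of the difference from -0.326 to 1.13 points.

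**Figure D3:**
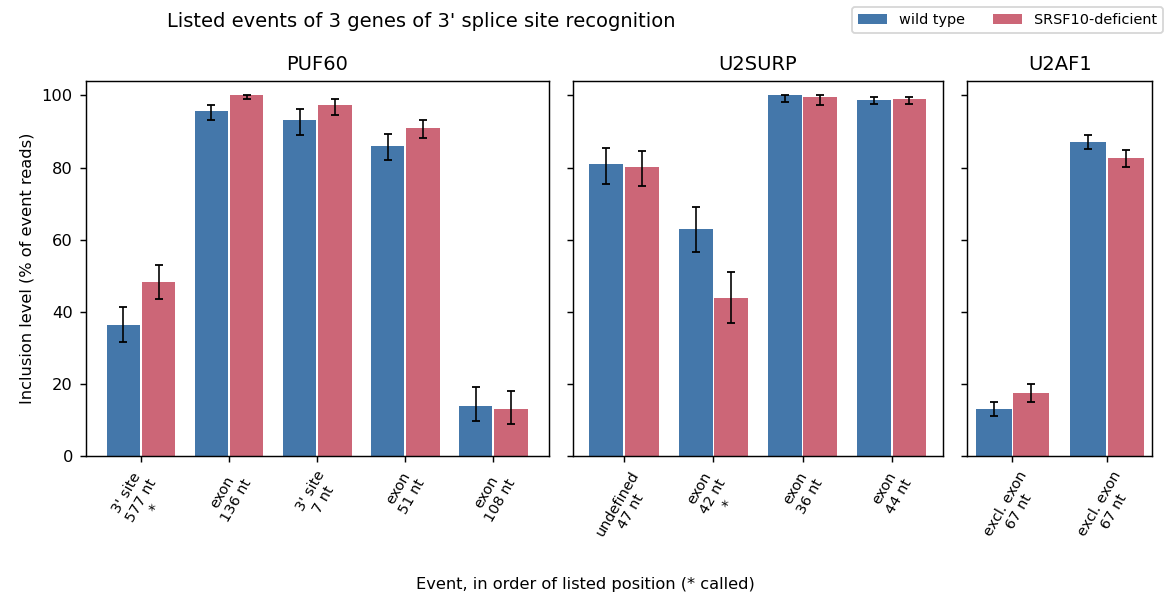
Inclusion level (percent of event reads) of every listed event with 2 numbers per library in PUF60, U2SURP and U2AF1, with bars for the wild-type and the SRSF10-deficient library, 95% exact intervals for counting error, and asterisks for called events. The 42 nt exon of U2SURP (63.0% and 43.9%) was lower in the deficient library, and the PUF60 3' site 577 nt apart was higher (36.4% and 48.3%).

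The proteins that recognise the branch point and the 3' splice site held 13 tested events in 4 genes, of which 2 were called. U2SURP, an SR-related protein bound to the U2 particle, had a 42 nt cassette exon (chromosome 9, 10110769 to 10110810) with 150 of 238 reads for inclusion in the wild-type library and 90 of 205 in the deficient library. Inclusion fell from 63.0% (56.6 to 69.2) to 43.9% (37.0 to 51.0), a difference of -19.1 points (-28.0 to -9.82; adjusted p = 0.00198 by Fisher's exact test). As listed, inclusion reads outnumbered skipping reads in the wild-type library but not in the deficient library. The interval of the deficient level reaches just past 50%. Which form was the major one depends on how inclusion reads are counted. With the inclusion reads of cassette exons halved, the difference was -17.9 points, and skipping was the major form in both libraries. The neighbouring exons did not pass: a 36 nt exon had 196 of 196 and 209 of 210 inclusion reads, and a 44 nt exon 568 of 575 and 568 of 574. A U2SURP event with no defined type had 80.9% and 80.1%. No event of U2SURP other than the 42 nt exon had an unadjusted p under 0.05 by Fisher's exact test.

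PUF60, a poly(U)-binding relative of U2AF2 that helps to define the 3' splice site, had 5 events. At 3' sites 577 nt apart (chromosome 2, 148731817 to 148732394), inclusion reads were 151 of 415 (36.4%, 31.7 to 41.2) and 207 of 429 (48.3%, 43.4 to 53.1). Inclusion rose by 11.9 points (5.20 to 18.4; adjusted p = 0.0114 by Fisher's exact test), which was the largest adjusted p among the 7 calls. A 136 nt exon that ends at the same base (148732259 to 148732394) had 397 of 415 reads for inclusion in the wild-type library (95.7%, 93.2 to 97.4) and 429 of 429 in the deficient library. The 18 skipping reads of the wild-type library thus had no counterpart, where 0 of 429 reads allows up to 0.699%. By Fisher's exact test that difference of 4.34 points (2.53 to 6.75) passed (adjusted p = 0.000114), but it was not called, being under 10 points. With its chi-square corrected for spread as given at the end, it did not pass (chi-square test, adjusted p = 0.764). Nor did it pass by the authors' deposited adjusted p. Both events list the same totals of 415 and 429 reads, so they are not independent.

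The remaining PUF60 events did not pass. A 51 nt exon was included at 85.9% (82.1 to 89.2) and 91.0% (88.2 to 93.3), with an adjusted p of 0.206. Sites 7 nt apart gave 93.2% and 97.4% (Fisher's exact test, adjusted p = 0.333), and a 108 nt exon 14.0% and 13.0%. In all, 4 events of the gene were higher in the deficient library by 4.19 to 11.9 points, the 108 nt exon being the exception. These are not independent, since the sites 577 nt apart and the 136 nt exon list the same read totals. What counts as inclusion at competing sites is also not defined.

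U2AF1 encodes the small U2AF subunit, which reads the AG at the end of the intron. In human, a pair of mutually exclusive exons of this gene gives its a and b isoforms, and the chicken table listed a pair of 67 nt exons. The exon at 109077225 to 109077291 on chromosome 1 had 1044 of 1199 reads (87.1%, 85.0 to 88.9) in the wild-type library and 799 of 967 (82.6%, 80.1 to 85.0) in the deficient library. The exon at 109076366 to 109076432 had the same reads in reverse, at 12.9% and 17.4%, so these rows are a single measurement. The difference of 4.45 points in either direction (1.42 to 7.53) did not pass (adjusted p = 0.0676 by Fisher's exact test). Its interval does not reach 10 points, but it covers counting error only. The median chi-square of mutually exclusive rows was 13.7 times its expected value, so a change of 10 points is not excluded. ZRSR2, which reads the 3' splice site of minor introns, had 92.3% and 94.4% at sites 15 nt apart, and 135 of 135 and 125 of 125 reads at sites 7 nt apart.

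The U2 particle, counted without U2SURP, showed no called event among 6 tested in 5 genes (0 of 6 with an unadjusted p under 0.05 by Fisher's exact test). U2SURP is bound to this particle and had a called exon, but it was placed in the group above. The contrast between these groups thus depends on that placing. SF3B1, which clamps the branch point helix, had a 56 nt exon that was mostly skipped, with 34 of 940 reads for inclusion (3.62%, 2.52 to 5.02) and 38 of 1008 (3.77%, 2.68 to 5.14). Its 68 nt intron row had 332 of 332 and 414 of 415 reads. SF3A1 had a 258 nt exon with 541 of 542 and 432 of 432 inclusion reads, and SF3A3 a 3' site with 1 of 170 and 0 of 171. SF3B3 differed most among them, at 77.5% (70.9 to 83.3; 187 reads) and 74.8% (66.6 to 81.9; 135 reads), an interval of -12.3 to 6.52 points. SF3A2, with an event of no defined type, had 63.0% and 63.4% over 1829 and 1581 reads. The interval of the difference lay within 10 points for each of these events except that of SF3B3.

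The genes with Sm and LSm symbols had 6 tested events and none called. Many proteins of these families, though not all, form rings on the small nuclear RNAs or on decaying messages. LSM14A, a P-body protein, had a 63 nt exon (chromosome 11, 10367287 to 10367349) used at 51.5% (47.0 to 55.8; 517 reads) and 57.7% (53.9 to 61.4; 704 reads). That difference of 6.22 points (0.573 to 11.8) did not pass (adjusted p = 0.28 by Fisher's exact test). Its alternative sites were nearly fixed, with 0 of 393 and 2 of 542 reads at 3' sites 6 nt apart and 277 of 277 and 200 of 201 at 5' sites 83 nt apart. LSM10, of the U7 particle that processes histone messages, had 17 of 24 and 24 of 31 reads, too few to tell 70.8% from 77.4%. SNRPF, an Sm protein, had 1424 of 1424 and 1104 of 1105 reads at 5' sites 54 nt apart. SNRPD1 was listed with an undefined event of nearly equal numbers, at 49.9% and 50%.

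The tri-snRNP was represented by PRPF4B, a kinase of this particle, with 51.7% and 52.5% in an undefined event of 1320 and 1549 reads. For the minor spliceosome, SNRNP25 had a 106 nt exon included at 95.4% in both libraries (371 and 459 reads), with a difference of 0.00705 points and an interval of -2.87 to 3.07. SNRNP48 was below the minimum, at 1 of 19 and 0 of 33 reads. For PRPF4B the interval of the difference was -2.92 to 4.41 points, so both tested intervals lay within 5 points. In 5 of the 8 tested member events with no defined type, PRPF4B among them, inclusion lay between 45 and 55% in both libraries. Over the whole table, such events had a median chi-square 0.162 times its expected value. Small differences in these rows are therefore not read as unchanged inclusion.

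Among proteins of the catalytic stage, 9 events in 4 genes were tested and 1, in CWF19L2, was called. CWF19L2 is related to fission yeast Cwf19, a factor of the late, intron lariat stage. Its 163 nt intron (chromosome 1, 179940472 to 179940634) had 28 inclusion and 13 exclusion reads in the wild-type library (68.3%, 51.9 to 81.9) and 32 and 0 in the deficient library (100%, 89.1 to 100). Inclusion rose by 31.7 points (15.5 to 47.0; adjusted p = 0.00801 by Fisher's exact test), the widest difference among the tested members. The table does not say what counts as inclusion of an intron. The same 13 and 0 exclusion reads were listed at the intron's ends, against 2 and 0 reads for a 5' site and 6 and 0 reads for a 3' site 4 nt away.

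The other CWF19L2 events did not pass. A 5' and a 3' event listed the same 141 of 141 and 159 of 160 inclusion reads. A 9 nt exon had 4 of 30 and 5 of 27 reads for inclusion (13.3% and 18.5%, an interval of -14.2 to 25.1 points). That exon shares its 26 and 22 exclusion reads with a 3' event 8 nt wide, at 0 of 26 and 1 of 23 inclusion reads, and the same numbers are the inclusion reads of a 5' event 13 nt wide (86.7% and 84.6%). CWC22, which brings the exon junction complex to the spliceosome, had 112 of 149 (75.2%) and 89 of 112 reads (79.5%) at 5' sites 44 nt apart, an interval of -6.17 to 14.2 points. CWC25, needed for the first cut, had 50.6% and 50.3% in an undefined event. PRPF18, needed for the second cut, had 1 of 59 and 0 of 43 reads at 3' sites a single base apart.

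Of the helicases with a place in the spliceosome by the list used, DHX35 alone had an event, with 25 of 25 and 26 of 26 reads for a 93 nt exon. The rest of the DEAD-box family held 17 tested events in 9 genes, and 1 was called. It lay in DDX26B, which carries a DDX symbol but in human is now named INTS6L, after a relative of an Integrator complex subunit. An 81 nt exon (chromosome 4, 4132849 to 4132929) had 1 of 52 inclusion reads in the wild-type library (1.92%, 0.0487 to 10.3) and 20 of 63 in the deficient library (31.7%, 20.6 to 44.7). Inclusion rose by 29.8 points (16.8 to 42.2; adjusted p = 0.000683 by Fisher's exact test), from nearly complete skipping to use in a minor part of the reads. With the inclusion reads of cassette exons halved, the difference was 17.9 points. No fold is given, since it would rest on a single wild-type read.

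Further along DDX26B, a 5' event 76 nt wide had 19 of 28 reads (67.9%) and 19 of 36 reads (52.8%), a difference of -15.1 points (-36.3 to 8.90) that did not pass (Fisher's exact test, adjusted p = 0.957). This was the 1 tested member event past 10 points that was not called. The adjoining 365 nt intron had 70 of 89 (78.7%) and 43 of 62 reads (69.4%), with -9.30 points and an adjusted p of 0.867, and shares 19 reads per library with the 5' event. Sites 9 nt apart had 0 of 118 and 1 of 123 reads. The rise of the 81 nt exon was therefore the sole call in the gene.

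DDX5, an abundant DEAD-box protein and coregulator of transcription and splicing, had the deepest event of the family. At 5' sites 24 nt apart (chromosome 18, 6867119 to 6867143), 1131 of 2144 reads (52.8%, 50.6 to 54.9) and 1065 of 1875 (56.8%, 54.5 to 59.1) supported inclusion. The difference of 4.05 points (0.963 to 7.12) did not pass (adjusted p = 0.135 by Fisher's exact test). Its 84 nt intron had 75.9% (415 reads) and 73.8% (873 reads), an interval of -7.04 to 3.03 points. DDX50, a nucleolar helicase, kept its 118 nt exon in 1319 of 1320 and 1248 of 1248 reads and its 150 nt exon in 897 of 906 and 840 of 841. DDX6, a helicase of P-bodies and mRNA decay, had 52.6% and 58.7% in an undefined event of 133 and 155 reads.

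The remaining tested DEAD-box events had inclusion above 90% or of at most 5% in both libraries. DDX54 and DDX31, which act in the nucleolus, had 96.0% and 94.4% (42 nt), 0.952% and 0.667% (21 nt), and 91.9% and 90.4% (4 nt) at alternative 5' sites. DDX20, a partner of the SMN protein in the assembly of Sm rings, ranged over its 3 events from 0 of 98 reads at a 3' site to 72 of 72 at a 5' site in the wild-type library, with 2 of 99 and 61 of 62 in the deficient library. The 389 nt intron of DDX49 had 3 of 144 (2.08%) and 3 of 113 (2.65%) inclusion reads. DDX25 had 1 of 20 and 0 of 23 reads at a 5' site.

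Among DEAH-box proteins, DHX36, which unwinds G-quadruplexes, had a 24 nt exon at 9.87% (6.36 to 14.4; 233 reads) and 15.8% (11.2 to 21.2; 222 reads). The difference of 5.89 points (-0.269 to 12.1) did not pass (adjusted p = 0.443 by Fisher's exact test). A 5' and a 3' event of DHX36 list the same reads in reverse, 653 and 11 in the wild-type and 505 and 13 in the deficient library, and differ by 0.853 points. DHX57 and an undefined DHX36 event lay between 46.3% and 50% in both libraries. No DEAH-box event was called, and none of the 5 had an unadjusted p under 0.05.

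The events below the minimum are 15 in number, with at most 19 reads in the shallower library. They lie in CWC25, CWF19L2, DDX6, DDX25, DDX28, DDX54, DDX60, DHX35, LSM14A and SNRNP48. Among them, an intron of DDX25 had 2 of 4 and 0 of 9 inclusion reads, too few to be tested. A further 3 rows list more than 2 numbers per library in an order that the header does not explain: DDX17 (5 numbers, summing to 1113 and 1487 reads), LSM14A (574 and 442) and SF3B14, now named SF3B6 in human (16 and 22). They were not tested.

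The other spliceosome genes, 78 symbols outside the naming rule (such as CDC5L, AQR, PLRG1, the LUC7-like proteins and the exon junction complex), were counted in the same way. Of these, 23 had a tested event, and 1 of their 44 events was called (2.27%, against 4.7% of all events), with 0 falls. It was a 33 nt exon of CCAR1, a coactivator of transcription, at 46.3% (443 reads) and 59.8% (445 reads), and Fisher's exact test gave an adjusted p of 0.00227. The median absolute difference over the 44 events was 1.84 points.

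The reads listed per gene, summed over its events and divided by the library's sum over the table, were also set side by side. They are no measure of expression, since they depend on which events were listed and count some reads in more than 1 row. Of 29 member genes with at least 50 event reads in 1 library, 0 were past 2-fold, against 10.9% of all 3291 such genes. These shares were not matched for depth. Member events were deeper (median 243.5 wild-type reads against 95), and a ratio from few reads passes 2-fold more easily by counting error. The lower share is therefore not read as a result about the members. The ratio of deficient to wild type ranged from 0.731 in SF3B3 (187 and 135 reads; 0.581 to 0.917) to 1.25 in SNRNP25 (371 and 459 reads; 1.09 to 1.44), with a median of 0.978 against 1.01 over all such genes. The counting interval lay above 1 in 6 genes, below 1 in 11 and held 1 in 12. No such count was made over all genes, so these counts are not read as a result about the members. The intervals also take every listed read as independent. Where reads of a gene are listed in more than 1 row, the intervals are therefore too narrow. Rows with the same counts were found in U2AF1, DHX36, PUF60, CWF19L2 and DDX26B. Among the described genes with called events, the ratio was 1.12 for PUF60, 1.00 for U2SURP, 0.978 for CWF19L2 and 1.00 for DDX26B. With only the event with most reads of each gene, it was 1.34 for PUF60, 1.01 for U2SURP, 1.15 for CWF19L2 and 1.06 for DDX26B. The ratio of a gene therefore depends on which of its events are summed. Fewer cells that express a gene and fewer of its RNA molecules per cell cannot be told apart in such sums.

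**Figure D4:**
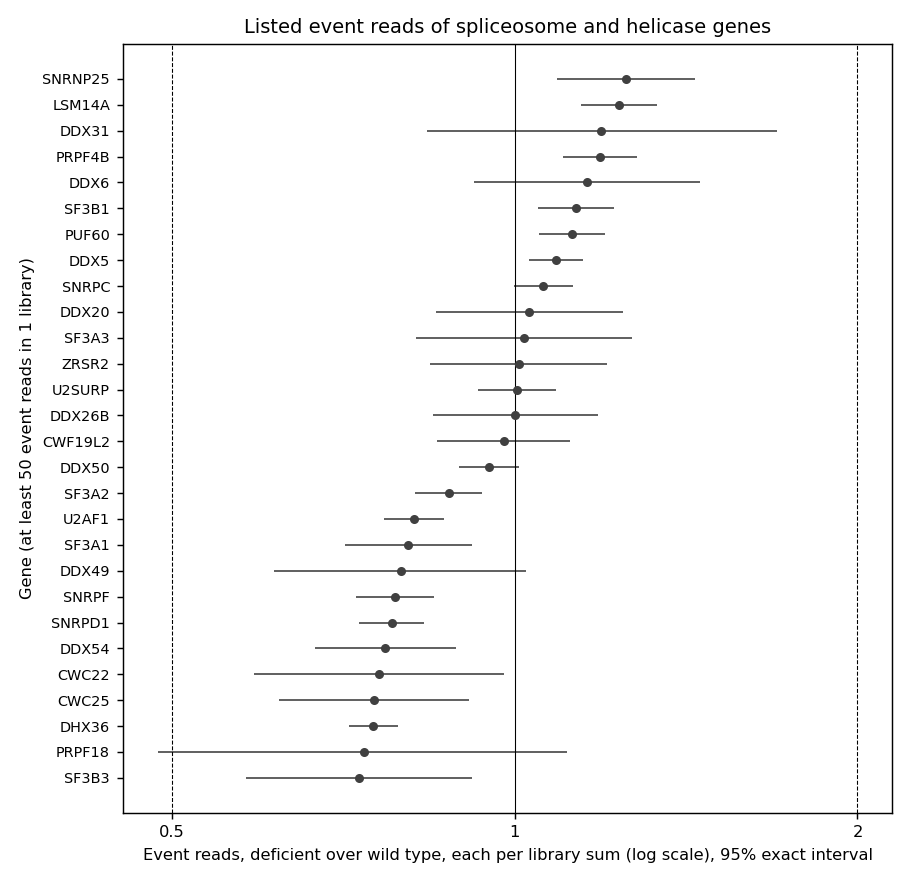
Ratio of summed event reads, deficient over wild type, each divided by the library's sum (log scale), for 28 of the genes with at least 50 event reads in 1 library, with 95% exact intervals that cover counting error only; the solid line marks 1 and dashed lines mark 2-fold. The 28 genes lie between 0.731 and 1.25, and PUF60, U2SURP, CWF19L2 and DDX26B lie between 0.978 and 1.12.

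The spread between the libraries was wider than counting error in every defined event type: the median chi-square was 3.97 times its expected value in cassette exons, 2.18 times at 3' sites, 2.29 times at 5' sites, 3.26 times in retained introns and 13.7 times in mutually exclusive rows. In events with no defined type the median chi-square was 0.162 times its expected value, and these were left undivided. After division of the other chi-square values by the factors of their types, 1 member call of 7 remained, as did 0.903% of all events. None of the 4 described calls remained. The adjusted p became 0.58 for PUF60, 0.916 for U2SURP, 0.866 for DDX26B and 1 for CWF19L2. The authors' deposited table gave adjusted p-values of 0.0349 for the DDX26B exon and 0.0415 for the U2SURP exon. In the authors' deposited table, the adjusted p-values were 0.351 for the CWF19L2 intron and 0.707 for the PUF60 site.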

How the data were processed

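The libraries were paired-end and made from poly(A) RNA, per the labels' protocols. The submitters' processing notes name TopHat2 2.0.6, Cufflinks and the galGal4 build. The deposited table lists the authors' adjusted p-values per event; their test and the event caller are not given in the sources read. The deposited table lists raw read counts for exclusion and inclusion, per the file headers. After 57 repeated rows were removed, 10319 events with 2 numbers per library remained, with 2047679 wild-type and 2022414 deficient reads. Total depth is unknown.

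All 6089 events with at least 20 reads in each library were tested together with Fisher's exact test. Intervals are Clopper-Pearson for levels and read ratios and Newcombe for differences; they cover counting error only. The limit that 3 counts allow is given for the 0 skipping reads of a PUF60 exon. Other values of 0 reads are printed without that limit. Exon and intron length is end minus start plus 1, and the distance between sites is end minus start. Of 38 names, 35 are symbols of the GRCg7b gene table, used for names only. No sequence was used here.

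Members, roles and lists were chosen with earlier results of these data known. Named were all called events, all past 10 points, the 2 deepest and the 2 widest per role, and all mutually exclusive or intron events; 35 events met this. Some of them are not reported here, and other events were added after their values were seen. Software was NumPy 2.4.6, SciPy 1.17.1 and pandas 2.3.3 under Python 3.11.15, with matplotlib 3.10.9 for plots.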

Additional observations from a re-analysis of the deposited data

How the results depend on the processing

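The 7 member calls, 286 calls overall and 1 call among other spliceosome genes stayed within 1.5 times with at least 10 or 50 reads, any difference, an adjusted p under 0.01 or 1 row per position. With at least 20 points they became 2, 156 and 0. With both counts divided by 2 they became 1, 91 and 0. With the chi-square values of each defined event type divided by its inflation they became 1, 55 and 0. With the authors' deposited adjusted p under 0.05 they became 3, 142 and 0. Fewer calls follow by construction from the stricter difference, the halved reads and the division of chi-square values, which can only lower them. For the other settings the cause was not tested. None of the 4 described calls changed direction where a setting gave a value, but this is no check of them. Most settings alter only the filter or the test and leave the difference of an event as it is. The halved reads were halved alike in both libraries. With cassette inclusion reads halved, the DDX26B difference moved from 29.8 to 17.9 points. Only the difference was computed anew there and the p from the full reads was kept, so the setting cannot test the call. Dividing both counts by 2 did repeat the test, and the DDX26B exon was then no longer called, at a difference of 32.3 points. CWF19L2 had too few reads for a value with at least 50 reads or with halved counts. No paired analysis was possible because each genotype has 1 library. The CWF19L2 call rests on 41 and 32 reads and that of DDX26B on 52 and 63 reads.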
